A study of Mus musculus with 13 samples.

Results

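The cytosolic ribosomal protein genes encode the proteins of the large and small subunits of the ribosome that translates nuclear mRNAs. They were chosen by name, as genes called Rpl or Rps followed by a number, the stalk genes Rplp0, Rplp1 and Rplp2, and Rpsa, with names marked as pseudogenes left out. The rule found 82 genes among 13222 listed genes, of which 50 belong to the large and 32 to the small subunit. The mouse annotation GENCODE vM21 gives 80 of them as protein coding and 2, Rpl6l and Rpl32l, as processed pseudogenes. Bulk RNA was sequenced from 4T1-Thy1.1 cells, a BALB/c mammary carcinoma line that carries a Thy1.1 transgene, after 48 h in culture. The 13 libraries came from untreated cells (control, n = 3), cells given doxorubicin at 200 ng/mL (DOX, n = 4), cells given DOX at 200 ng/mL together with recombinant mouse IL-17A at 25 ng/mL (DOX+IL-17A, n = 3) and cells given IL-17A alone at 25 ng/mL (IL-17A, n = 3). All groups were cultures of this single line. The comparisons ask how cultured cancer cells respond to DOX, to IL-17A and to both.

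Each ribosome holds a single copy of nearly every ribosomal protein, so the genes are usually expressed together and at high level. Their mRNAs begin with a 5′ terminal oligopyrimidine (TOP) tract, through which mTORC1 and LARP1 control their translation. When ribosome assembly is disturbed, free RPL5 and RPL11 bind MDM2 and stabilize p53. DOX is an anthracycline that intercalates into DNA, poisons topoisomerase II and represses the synthesis of ribosomal RNA. IL-17A is a cytokine of T cells that signals through the receptor chains IL17RA and IL17RC.

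The start regions of the genes share short motifs, which are shown here as sequence that many members have in common. RefSeq promoter windows, from 250 bases before to 50 bases after the annotated start (GRCm38.p6), matched 61 of the 82 genes by symbol. A gene was counted for a motif if any of its listed windows held it. The motif CGGAAG is the core recognized by GABPA and other ETS factors. It occurred on either strand in 41 of the 61 genes (67.21%), against 5075 of 27025 genes with a window (18.78%). It was present in 22 of 37 large subunit genes and 19 of 24 small subunit genes. A pyrimidine run, CTCTTTC, stood on the sense strand in the last 80 bases in 12 of the 61 genes (19.67%), against 347 of 27025 (1.284%). A match describes the letters and does not show that a factor binds. The windows below run from 100 bases before to 20 bases after the start and carry these motifs in capitals (CGGAAG or its reverse complement CTTCCG, and CTCTTTC). They are from Rps15 (chr10:80292331-80292450, forward strand) and Rpl41 (chr10:128549149-128549268, reverse strand), which were among the genes that fell most with DOX, from Rps6 (chr4:86857348-86857467, reverse strand) and Rpl35 (chr2:39005112-39005231, reverse strand), and from the paralogs Rps27l (chr9:66945986-66946105, forward strand) and Rpl7l1 (chr17:46782637-46782756, reverse strand), which rose.
Rps15: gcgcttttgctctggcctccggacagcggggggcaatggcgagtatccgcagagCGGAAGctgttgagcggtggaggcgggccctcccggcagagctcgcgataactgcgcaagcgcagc
Rpl41: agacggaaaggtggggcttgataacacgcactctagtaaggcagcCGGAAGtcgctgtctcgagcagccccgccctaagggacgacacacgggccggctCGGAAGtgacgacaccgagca
Rps6: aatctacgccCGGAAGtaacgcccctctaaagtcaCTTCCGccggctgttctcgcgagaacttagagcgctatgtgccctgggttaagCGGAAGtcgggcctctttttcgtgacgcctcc
Rpl35: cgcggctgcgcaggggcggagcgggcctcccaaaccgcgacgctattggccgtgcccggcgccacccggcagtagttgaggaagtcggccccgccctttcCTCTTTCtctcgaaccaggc
Rps27l: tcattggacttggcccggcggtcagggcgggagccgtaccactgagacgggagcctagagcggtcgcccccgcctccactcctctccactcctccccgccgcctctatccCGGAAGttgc
Rpl7l1: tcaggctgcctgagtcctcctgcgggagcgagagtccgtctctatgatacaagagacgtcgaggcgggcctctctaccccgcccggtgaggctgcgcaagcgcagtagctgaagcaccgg
Rps6 held 3 of the CGGAAG motifs in this stretch and Rpl41 held 2, while the window of Rpl7l1 held neither motif.

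The 4 groups had between 4445592 and 16930600 reads on listed genes per library. The deposited unit is a TMM-normalized value per gene, in which a library is scaled for its depth and RNA composition. It comes from 3′ end tags, so it does not grow with transcript length. A level of 3 reads, taken as the smallest detectable, was 0.183 to 0.613 units, for counting error only. The epithelial markers Krt8, Krt18 and Epcam were present in all 13 libraries. The summed values of 5 epithelial markers, these with Cdh1 and Cldn7, were lower in every library that received DOX. They were 1202 to 1545 in control, 652 to 746 with DOX, 538 to 699 with DOX+IL-17A and 1023 to 1295 with IL-17A. The 2 listed of 5 immune markers, summed, were 1.52 to 6.33 in control, 10.5 to 19.4 with DOX, 8.79 to 9.86 with DOX+IL-17A and 4.92 to 13.1 with IL-17A. DOX replicate 1 stood out in the markers of muscle and blood. The summed values of 6 skeletal muscle markers were 213 in that library, 14.1 to 31.9 in the other 3 DOX libraries and 12.6 to 37.9 in the control libraries. Those of the 3 listed red blood cell markers were 66.5 in DOX replicate 1, 1.34 to 5.47 in the others and 0.943 to 14.4 in control. The part of these markers in the results was not tested.

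Control replicate 1 stood apart from the other control libraries in these genes. Against the mean of control replicates 3 and 5 it was more than 2-fold lower in 32 members and more than 2-fold higher in 3. Among the 76 members with a mean value above 100, 44.7% differed by more than 2-fold in this library, against 27.4% of 1990 other genes above that level. The same shares were 0% of members in each of the 4 DOX libraries. The lowest members in control replicate 1 relative to the others were Rpl22l1 (31.3, against 482 and 405), Rpl7a (216, against 2012 and 1671) and Rpl11 (354, against 2259 and 2249). The highest were Rps4x (87.1, against 22.3 and 48.4), Rpl8 (2702, against 1051 and 1308) and Rps20 (7176, against 2932 and 3455). IL-17A replicate 5 departed from its group in a related way. Across the 82 members its deviations correlated with those of control replicate 1 (Pearson r = 0.66, Spearman rho = 0.66), as a description over genes that share libraries. Over all tested genes the Pearson r of these libraries was 0.47, so the likeness was not limited to the members. Counts of calls among the members and their medians against control are given with and without control replicate 1.

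**Figure D1:**
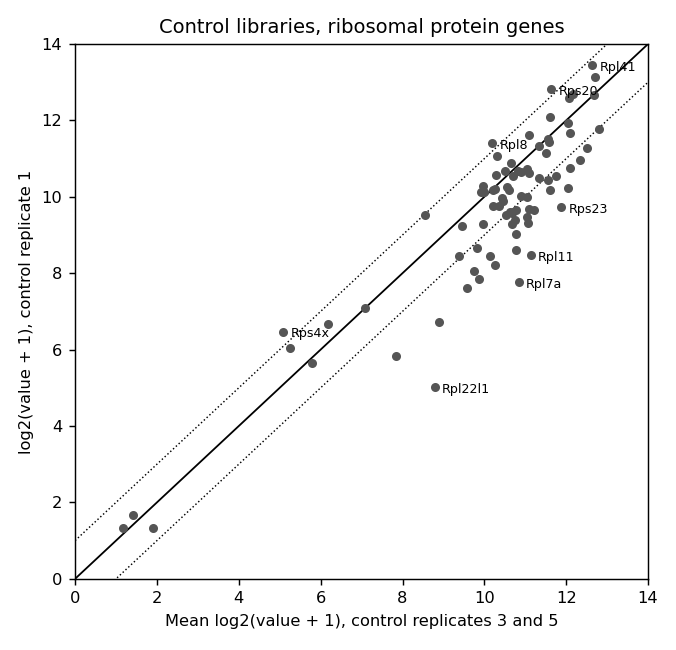
Each point is a ribosomal protein gene, with its mean log2(value + 1) in control replicates 3 and 5 on the x axis and its log2(value + 1) in control replicate 1 on the y axis. The solid line marks equal values and the dotted lines a 2-fold difference. In control replicate 1, 32 of the 82 genes lie below the lower dotted line and 3 above the upper one.

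The members were among the most abundant transcripts. The mean value over all libraries was above 1000 for 54 of the 82 genes and below 100 for 6, while the median listed gene had a mean of 18.8. The highest were Rplp1, a stalk protein of the large subunit, and Rpl6. The lowest were Rpl39, which lines the exit tunnel, and Rps9, a small subunit protein near the mRNA entry. Rpl39 was 2.20, 1.77 and 1.53 in the control libraries and 0.140 to 1.64 in the DOX libraries, and its values fell below the level of 3 reads in some libraries. Rps9 was 1.52, 1.77 and 0.825 in the control libraries. Ribosomal protein genes have many processed copies, and 61 of the 82 shared at least 1 stretch of 75 bases, the read length, in the last 300 bases of their transcript with another annotated gene. How reads that match several genes were counted is not given in the sources used here. Levels and differences of these genes are therefore uncertain where a copy could take their reads. Rpl39 shared 2.65% of its stretches and Rps9 19.0%, and why their values were so low was not tested. The 29 listed genes named as ribosomal protein pseudogenes held 0.779% ± 0.138 (SD, n = 3) of the summed values in control libraries and 0.565% ± 0.0295 (SD, n = 4) in DOX libraries.

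The share of the summed values that fell on the 82 genes was lower in the groups with DOX. It was 12.1%, 15.8% and 17.2% in the control libraries and 11.8%, 11.8%, 11.2% and 12.3% in the DOX libraries. With DOX+IL-17A it was 10.9%, 10.7% and 13.7%, and with IL-17A alone it was 16.7%, 15.9% and 16.7%. The DOX libraries overlapped the control libraries only through control replicate 1, and the IL-17A libraries lay above every library that received DOX. The mean was 15.02% ± 2.66 (SD, n = 3) in control and 16.5% ± 0.975 (SD, n = 2) without control replicate 1, against 11.7% ± 0.453 (SD, n = 4) with DOX. These are relative amounts of RNA, and fewer ribosomal protein transcripts per cell cannot be told apart from more RNA of other genes.

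The ratio of summed large to summed small subunit values was 1.98, 1.42 and 1.55 in control, 1.496, 1.456, 1.484 and 1.478 with DOX. It was 1.58, 1.55 and 1.53 for DOX+IL-17A and 1.43, 1.42 and 1.60 for IL-17A alone. Control replicate 1 was the highest of the 13 libraries, and the other 12 lay between 1.42 and 1.60. No test was run on this ratio.

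**Figure D2:**
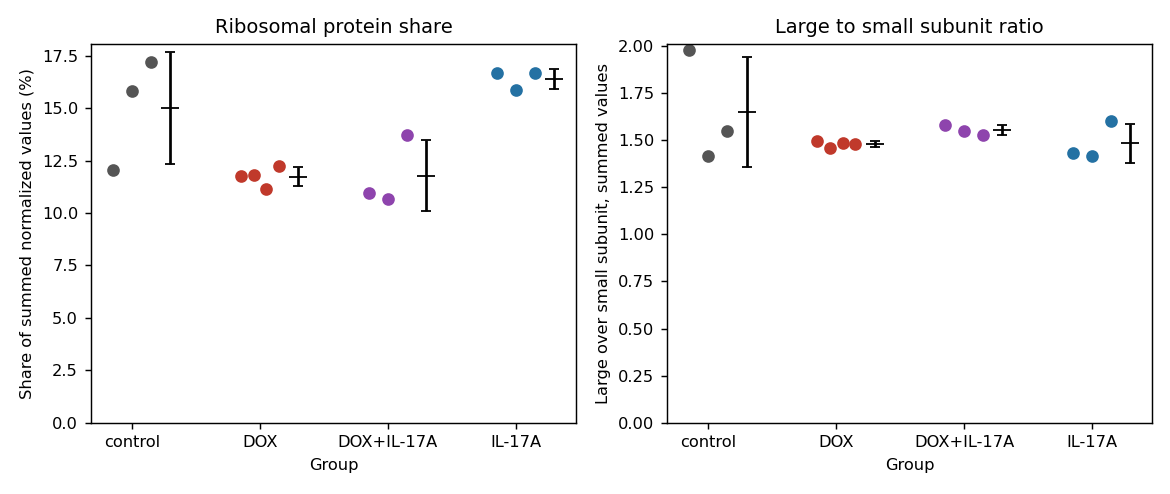
Points are libraries, and the bars beside them give the mean ± SD of each group. The left panel shows the percent of summed normalized values on the 82 ribosomal protein genes, which was 11.2% to 12.3% with DOX and 15.9% to 16.7% with IL-17A alone. The right panel shows the ratio of summed large to summed small subunit values, which was 1.98 in control replicate 1 and 1.42 to 1.60 elsewhere.

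**Figure D3:**
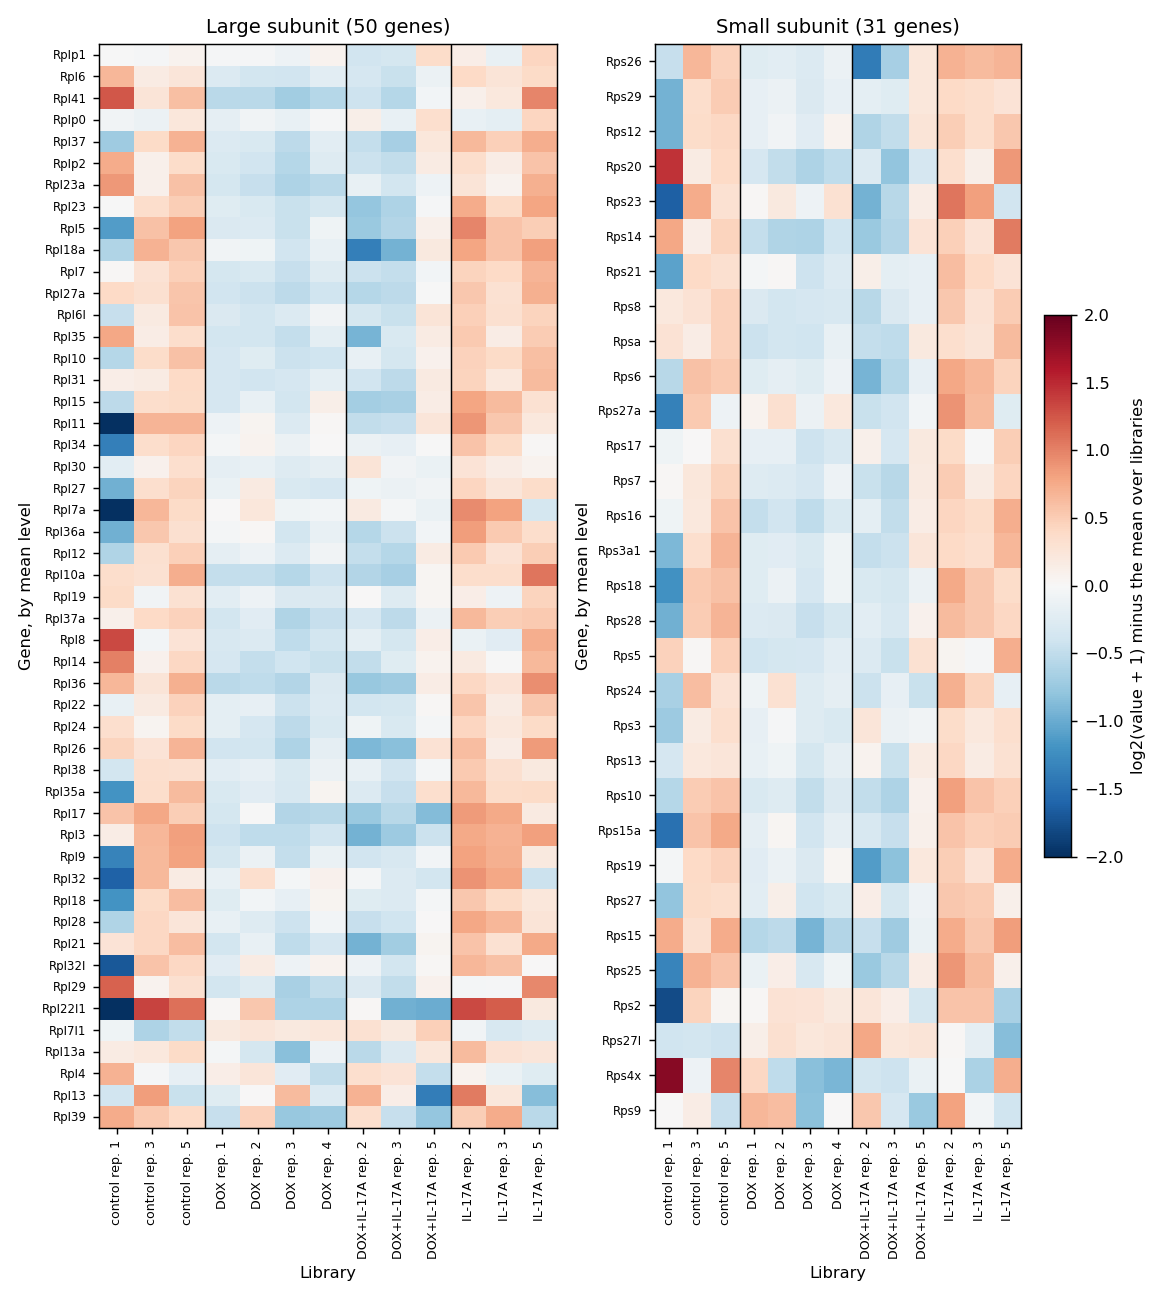
Rows are 81 of the 82 genes by subunit, ordered from high to low mean level, and columns are the 13 libraries. Colour gives log2(value + 1) minus the mean of the gene over the libraries, cut at 2 on either side. Genes that fell with DOX, such as Rpl3 and Rps15, are blue in the DOX columns, and control replicate 1 holds both strongly red and strongly blue genes.

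With DOX alone, ribosomal protein transcripts were lower by the median, and 70 of the 82 log2 fold changes were negative. Of the 82 genes, 26 fell and 2 rose at an adjusted p under 0.05 (limma with trend, Benjamini-Hochberg over 12319 genes), where 22.1% of all tested genes were called, 9.71% as lower and 12.4% as higher. The members that fell were 18 of 50 large subunit genes and 8 of 32 small subunit genes. The median log2 fold change was -0.37 over all members, -0.43 for the large and -0.30 for the small subunit, and 0.09 over all tested genes. A fold change above 2 together with the adjusted p was reached by 6 members, all lower, against 6.18% of all tested genes as lower. In 33 members every DOX library was below every control library, against 15.2% of all tested genes, and in 2 members they were all above, against 18.5%. Without control replicate 1 the count was 40 lower and 1 higher, against 9.94% and 11.7% of all tested genes, and the median was -0.62, with 20 of the 28 genes called in both. In that fit 26 large subunit genes fell and 1 rose, with a median of -0.62, and 14 small subunit genes fell, with a median of -0.63. Leaving out control replicate 5 gave 13 calls, where 15.2% of all tested genes were called. Leaving out DOX replicate 1, 2, 3 or 4 gave 18, 14, 11 or 12. The shares of all tested genes in those fits were 17.6%, 16.5%, 15.1% and 15.2%. Scaling by library size alone moved the median of all genes from 0.09 to 0.24 and left 17 members lower and 2 higher, with a median of -0.20. With that scaling 830 of the 12319 tested genes were called as lower and 2104 as higher.

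**Figure D4:**
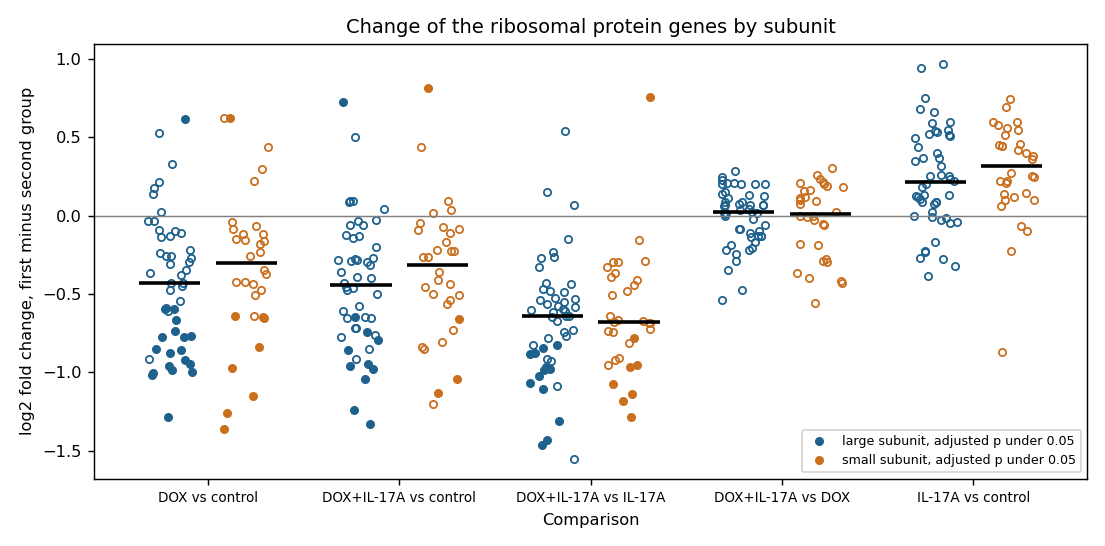
Each point is a ribosomal protein gene in a comparison, with its log2 fold change of log2(value + 1) on the y axis. Large subunit genes are blue and small subunit genes orange, filled points passed an adjusted p under 0.05, and black bars are medians. The medians of the large and small subunit are -0.43 and -0.30 for DOX against control, and 0.02 and 0.01 where DOX+IL-17A is set against DOX.

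Rpl3 (chr15:80077791-80091868, reverse strand), a protein near the peptidyl transferase centre, was 862, 1234 and 1388 in the control libraries and 586, 548, 548 and 599 in the DOX libraries. All DOX libraries were below all control libraries. The log2 fold change was -0.997 (SE 0.20, adjusted p 0.0027), and the gene was called whichever library was left out. Rps15 (chr10:80292453-80294114, forward strand), a protein of the small subunit head, was 1118, 840 and 1124 in control and 452, 465, 350 and 445 with DOX. The groups were well apart, and the log2 fold change was -1.26 (SE 0.20, adjusted p 0.00064). Rpl41 (chr10:128548114-128549305, reverse strand), a very short peptide of the large subunit, was 11156, 5629 and 7183 in control and 3247, 3239, 2913 and 3173 with DOX. Its log2 fold change was -1.29 (SE 0.28, adjusted p 0.0049), and -1.02 without control replicate 1, which was its highest library.

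Rps4x, the X-linked gene of a small subunit protein, had the lowest log2 fold change, -1.36 (SE 0.43, adjusted p 0.034). Its values were 87.1, 22.3 and 48.4 in control and 32.2, 16.5, 13.002 and 12.3 with DOX, so the groups overlapped. Without control replicate 1 the log2 fold change was -0.90 and the adjusted p 0.13. Of the proteins around the exit of the nascent chain tunnel, 4 of 8 fell with DOX. At the same threshold 26 of the 82 members and 9.71% of all tested genes fell. The 4 were Rpl17, Rpl23a, Rpl26 and Rpl35, with log2 fold changes of -0.99, -1.01, -0.85 and -0.77. Rpl26 and Rpl35 lost their calls without control replicate 5 or any of the 4 DOX libraries. Rpl35 also lost its call without control replicate 1 or DOX+IL-17A replicate 3. The other 4, Rpl19, Rpl22, Rpl31 and Rpl39, did not pass. All 8 fold changes were negative, though Rpl39 was below the level of 3 reads in some libraries.

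In the stalk that recruits elongation factors, the members differed. Rplp0, its base, was 3890, 3784 and 4776 in control and 3626, 3897, 3714 and 4048 with DOX, with overlapping groups and a log2 fold change of -0.11 (SE 0.23). Rplp1, the most abundant member, changed by -0.03 (SE 0.25). Rplp2 was 6098, 3927 and 4708 in control and 2977, 2801, 2459 and 3076 with DOX. It fell by 0.78 on the log2 scale (SE 0.24, adjusted p 0.029), and without control replicate 1 the adjusted p was 0.062. Rpsa, which also serves as a laminin receptor, fell by 0.64 (SE 0.22, adjusted p 0.045). When each library was left out in turn, Rplp2 lost its call in 6 of 13 fits and Rpsa in 9.

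The genes of the 5S particle and of signalling depended on control replicate 1. Rpl5, which with RPL11 carries the 5S RNA and can bind MDM2, was 1196, 3876 and 4549 in control and 2121, 2135, 1895 and 2442 with DOX. Control replicate 1 was below all DOX libraries and the other control libraries were above them. The log2 fold change was -0.37 (SE 0.37, adjusted p 0.49), and -0.97 with an adjusted p of 0.0085 without that library. Rpl11 went from 0.14 (SE 0.48, adjusted p 0.87) to -0.75 (adjusted p 0.029) in the same way. Rps6, the substrate of S6 kinase, was 1399, 3084 and 2949 in control and 1738, 1812, 1750 and 1930 with DOX. Its log2 fold change was -0.37 (SE 0.27, adjusted p 0.34), and -0.74 with an adjusted p of 0.018 without control replicate 1. Rps27a, made as a fusion with ubiquitin, had a log2 fold change of 0.44 (SE 0.36, adjusted p 0.40), which turned to -0.084 (adjusted p 0.86) without that library.

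The 2 genes that rose are paralogs of ribosomal proteins. Rps27l (chr9:66946086-66949516, forward strand), a paralog of Rps27 known in human cells as a target of p53 and a partner of MDM2, was 135, 137 and 132 in control and 193, 221, 208 and 213 with DOX. The groups did not overlap. The log2 fold change was 0.63 (SE 0.21, adjusted p 0.044), and the adjusted p was 0.055 without control replicate 1. Leaving out libraries in turn cost it the call in 9 of 13 fits. Its parent Rps27 was 407, 908 and 897 in control and 603, 761, 532 and 568 with DOX, a change of -0.18 (SE 0.26, adjusted p 0.65). Rpl7l1 (chr17:46773907-46782672, reverse strand), a paralog of Rpl7, was 100, 68.7 and 74.8 in control and 121, 126, 122 and 124 with DOX. It rose by 0.62 (SE 0.18, adjusted p 0.022), while Rpl7 fell by 0.60 (SE 0.20, adjusted p 0.042), and these calls were lost in 5 and 9 of those 13 fits. Rpl22l1, a paralog of Rpl22, was 31.3, 482 and 405 in control and 191, 274, 123 and 122 with DOX. Its log2 fold change was -0.13 (SE 0.68, adjusted p 0.91), and -1.39 with an adjusted p of 0.012 without control replicate 1. Rps2 had a positive log2 fold change of 0.62 (SE 0.41, adjusted p 0.29), which was -0.052 without that library.

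**Figure D5:**
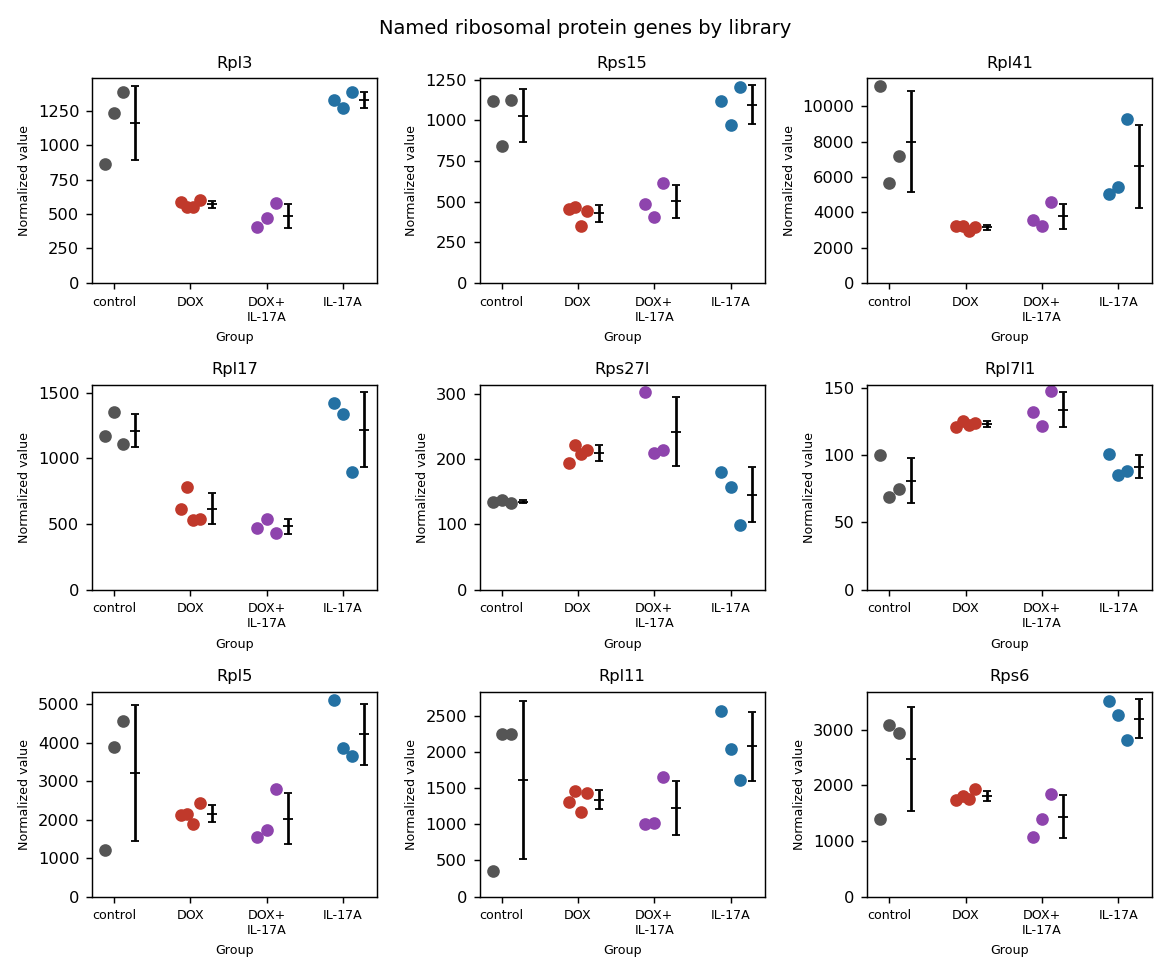
Normalized values of 9 ribosomal protein genes are plotted by group, with a point per library and the mean ± SD beside them. Rpl3 is 548 to 599 with DOX and 862 to 1388 in control, Rps27l is 193 to 221 with DOX and 132 to 137 in control, and a single control library is low in Rpl5, Rpl11 and Rps6.

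With DOX and IL-17A together, 71 of the 82 log2 fold changes against control were negative. At an adjusted p under 0.05, 13 members fell and 2 rose, where 17.7% of all tested genes were called, 8.34% as lower and 9.37% as higher. The 13 were 10 large and 3 small subunit genes. The median log2 fold change was -0.40 (large -0.44, small -0.31), against 0.04 over all tested genes. Without control replicate 1 there were 38 lower and 2 higher members, against 10.3% and 10.9% of all tested genes, with a median of -0.63. Of the lower ones 25 were large and 13 small subunit genes, and the medians of the subunits were -0.62 and -0.66. Leaving out control replicate 5 gave 4 calls, DOX+IL-17A replicate 2 or 3 gave 5 each, and DOX+IL-17A replicate 5 gave 27. In that order, these fits called 10.8%, 11.2%, 11.2% and 14.9% of all tested genes. A fit of these 2 groups alone gave 2, where 4.88% of all tested genes were called.

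Rpl17, a protein at the tunnel exit, was 1171, 1352 and 1113 in control and 473, 539 and 432 with DOX+IL-17A. Its log2 fold change was -1.33 (SE 0.22, adjusted p 0.0013), and the groups did not overlap. Rpl3 was 404, 471 and 581, for a log2 fold change of -1.24 (SE 0.21, adjusted p 0.0013). Rps15 was 485, 406 and 612, a change of -1.04 (SE 0.21, adjusted p 0.0042). Rps27l was 302, 209 and 213 and Rpl7l1 was 132, 122 and 148, all above the control libraries. Their log2 fold changes were 0.82 (SE 0.22, adjusted p 0.022) and 0.73 (SE 0.19, adjusted p 0.016). Rps4x had a value of -1.20 (SE 0.46, adjusted p 0.083) and Rpl7a one of 0.51 (SE 0.59, adjusted p 0.58), which were -0.74 and -0.52 without control replicate 1. This comparison shares its control libraries with DOX against control, so their calls are not independent.

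Adding IL-17A to DOX changed no member at the threshold. With limma with trend, 0 of 82 genes passed and 0 had an unadjusted p under 0.05, and edgeR, DESeq2 and voom also called 0, where 0.455% of all tested genes were called. The median log2 fold change was 0.02, and the lowest member was Rps23 at -0.56. Rps23, near the decoding centre, was 2644, 2982, 2446 and 3235 in the DOX libraries. The DOX+IL-17A libraries had 1349, 1783 and 2883, so the groups overlapped. Differences of the size seen here were not detectable with these replicates.

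IL-17A alone also called 0 members against control, with 1 at an unadjusted p under 0.05, and 0.00812% of all tested genes were called. edgeR, DESeq2 and voom called 0. The median log2 fold change was 0.25 (large 0.21, small 0.32), against 0.02 over all tested genes, and 66 of the 82 values were positive. Without control replicate 1 the median was 0.04 (large 0.03, small 0.06). Rpl7a, a large subunit protein with many processed copies, was 216, 2012 and 1671 in control and 2455, 2233 and 1001 with IL-17A. Its log2 fold change was the highest, 0.97 (SE 0.59, adjusted p 0.96), and was -0.056 without control replicate 1. Rps4x was the lowest at -0.87 (SE 0.46, adjusted p 0.96), and at -0.41 without that library.

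Against IL-17A alone, a comparison of groups without control libraries, 78 of the 82 log2 fold changes with DOX+IL-17A were negative. At an adjusted p under 0.05, 20 members fell and 1 rose, where 13.3% of all tested genes were called, 6.75% as lower and 6.51% as higher. The median log2 fold change was -0.67 (large -0.64, small -0.68), against 0.02 over all tested genes. In 49 members every DOX+IL-17A library was below every IL-17A library, against 15.5% of all tested genes, and in 2 they were all above, against 16.4%. The control libraries enter this comparison only through the shared estimate of spread, and without control replicate 1 there were 52 lower and 2 higher members, against 11.1% of all tested genes in each direction. Leaving out DOX+IL-17A replicate 2 or 3 gave 6 or 7 calls, where 7.65% or 7.61% of all tested genes were called. Leaving out IL-17A replicate 2 or 5 gave 12 or 8, where 10.5% or 7.20% were.

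Rps6 was 3513, 3274 and 2820 with IL-17A and 1078, 1396 and 1839 with DOX+IL-17A. The groups did not overlap, and the log2 fold change was -1.18 (SE 0.29, adjusted p 0.015). Rpl3 was 1329, 1272 and 1388 with IL-17A, and its log2 fold change was -1.47 (SE 0.21, adjusted p 0.00074). Rpl5 was 5118, 3866 and 3651 with IL-17A and 1552, 1730 and 2791 with DOX+IL-17A. Its log2 fold change of -1.09 (SE 0.39) did not pass (adjusted p 0.079). A fit of all 13 libraries blocked on replicate number put its adjusted p at 0.049. Of a list of 9 of the genes mutated in Diamond-Blackfan anemia, an inherited failure of red cell production, 3 fell. At the same threshold 20 of the 82 members and 6.75% of all tested genes fell. The 3 were Rps10, Rps19 and Rps26, with log2 fold changes of -0.96, -1.07 and -1.28. The median of the list was -0.78, against -0.67 over all members. The count was 8 without control replicate 1, where 52 of the 82 members and 11.1% of all tested genes fell. It was 0 without IL-17A replicate 5, where 8 of the 82 members and 441 of 12319 tested genes fell. With DOX against control 0 of the listed 9 were called, where 22.1% of all tested genes were. Without control replicate 1, 4 fell, where 40 of the 82 members and 9.94% of all tested genes fell. Rps27l was 180, 157 and 98.2 with IL-17A and rose by 0.75 (SE 0.22, adjusted p 0.037). Its call was lost without DOX replicate 1, 2, 3 or 4, DOX+IL-17A replicate 2 or 3, or IL-17A replicate 3 or 5. It was also lost when only these 2 groups were fitted. Rpl22l1 had the lowest value, -1.55 (SE 0.73, adjusted p 0.17).

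The effect of DOX did not differ detectably between cells with and without IL-17A. In the test of this difference 0 members and 0 of all tested genes passed with limma, 1 member had an unadjusted p under 0.05, and edgeR, DESeq2 and voom called 0 members. The median difference was -0.24 and was -0.02 without control replicate 1. The extremes were Rpl22l1 at -1.42 (SE 1.0002, adjusted p 0.90) and Rps4x at 1.03 (SE 0.63, adjusted p 0.90), and without that library they were -0.16 and 0.57.

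Fau, Rpl36al and Rack1 encode ribosomal proteins or a ribosome-bound scaffold under names outside the rule. Fau, a fusion with a ubiquitin-like protein, fell with DOX by 0.83 (SE 0.24, adjusted p 0.024), and its adjusted p was 0.067 without control replicate 1. Rpl36al and Rack1 did not pass. Of 16 other TOP mRNAs, among them those of initiation and elongation factors, 6 fell and 0 rose with DOX, with a median of -0.38. These calls were 37.5% of the list, against 22.1% of all tested genes, of which 9.71% were lower. They included Npm1, a nucleolar chaperone of ribosome assembly, at -1.12 and the initiation factor Eif4b at -0.94. Of 17 genes of the mTORC1 pathway, 1 rose and 2 fell, and the share called, 17.6%, was below the 22.1% of all tested genes. Sesn2, a stress-induced inhibitor of mTORC1, rose by 1.56, and Ddit4 and Deptor, which also inhibit it, fell, with log2 fold changes of -1.54 and -1.91. Of the 29 listed ribosomal protein pseudogenes, 4 fell and 0 rose, with a median of -0.32. That is 13.8% called, against 9.71% of all tested genes as lower. Without control replicate 1, 7 fell, where 9.94% of all tested genes fell.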

How the data were processed

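The libraries were made by the authors with a 3′ mRNA kit and sequenced as single reads of 75 bases. The authors trimmed reads with Trimmomatic, aligned them to mm10 with STAR, counted them per gene with featureCounts and normalized by TMM. The deposited values are thus a normalized signal, without the counts. All values were whole multiples of a step per library (100%, tolerance 0.05 reads), which gave the reads (4445592 to 16930600 per library). A duplicate entry was dropped from 13223.

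Genes were tested with limma with trend (limma 3.58.1, R 4.3.3) on log2(value + 1), with group as the factor, all 13 libraries and the 12319 genes kept by filterByExpr of edgeR 4.0.16, which included all 82 members. A fold change on this scale understates that of low genes. P-values were adjusted by Benjamini-Hochberg, and genes were called at 0.05. Nothing in the labels says that libraries came from separate cultures, so p-values measure the spread between these samples. Replicate numbers were checked by the correlation of deviations from the group means. In DOX+IL-17A against IL-17A, the comparison with 3 shared numbers, the pairs were at 0.17, 0.20 and 0.35, all above 0.1. No batch is stated, and the main tests used no pairing. The numbers entered only as a block in an alternative fit. Some differently numbered libraries also passed 0.1, such as DOX+IL-17A replicate 2 with IL-17A replicate 3 (0.119). Control replicate 1 with IL-17A replicate 5 reached 0.468, so passing 0.1 does not by itself establish a pair. The mean r was 0.15 over 13 same-numbered and -0.037 over 50 differently numbered pairs. Alternatives were the replicate block, voom, edgeR quasi-likelihood, DESeq2 1.42.0, other scaling, filters, pseudocount and samples, and the test was tried on simulated data. Genes were named by a rule: the 3 highest and 3 lowest members with DOX or DOX+IL-17A against control, the extremes elsewhere, the stalk genes and Rpsa, paralogs and their parents, Rpl5, Rpl11, Rps6, Rps27a, the highest and lowest in level, and Fau, Rpl36al and Rack1. Other members are named in lists. The results of 2 genes are not reported here by name. The paralogs Rpl3l, Rpl10l, Rpl39l and Rps4l were not analysed here. Members and lists were chosen with earlier results of these data known.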

Additional observations from a re-analysis of the deposited data

How the results depend on the processing

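The direction of the members' median held under all alternatives run for DOX against control, DOX+IL-17A against control and DOX+IL-17A against IL-17A, while the counts of calls moved. DOX against control had 28 calls, 14 with a replicate block and 6 with a fold above 2 required. Of all tested genes, 22.1% were called, 14.4% with the block and 1888 of 12319 with the fold. DOX+IL-17A against control had 15 calls, 24 with DESeq2, 2 when just these groups were fitted and 5 with the fold. The shares of all tested genes were 17.7%, 22.0% and 4.88%, and 1589 of 12319 passed with the fold. DOX+IL-17A against IL-17A had 21 calls, 33 with DESeq2 and 10 with the fold. Here the shares of all tested genes were 13.3% and 17.8%, and 1212 of 12319 passed with the fold. Leaving out single libraries gave 11 to 41, 4 to 40 and 6 to 54 calls in these comparisons, and medians of -0.62 to -0.21 for DOX against control. The highest count in each was the fit without control replicate 1. The shares of all tested genes called in the fits without single libraries were 15.1% to 23.4%, 10.8% to 21.2% and 6.13% to 22.2%. Rpl7a, which was never called, turned negative for DOX+IL-17A against control with edgeR (-0.0199), DESeq2 (-0.0223) and the replicate block (-0.0531), and ranged from -0.52 to 1.09 without single libraries. It ranged from -0.056 to 1.55 for IL-17A against control, and Rps2 from -0.052 to 1.06 for DOX against control. The cause was not tested.

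Same-numbered libraries correlated above 0.1 in 8 of 13 pairs over all groups (r from -0.18 to 0.49), and in all pairs of DOX+IL-17A and IL-17A. For DOX+IL-17A against IL-17A the replicate block gave 28 calls, which held all 21, where 15.5% of all tested genes were called. Of the genes described there it changed the call of Rpl5 alone. The block was fitted to all 13 libraries, so it also used the numbers of the other groups. It is therefore not a paired test of these 2 groups alone, and the main p-values use no pairing. Elsewhere groups shared 2 numbers, and no pairing was established there either. The block left 12 calls for DOX+IL-17A against control, where 12.2% of all tested genes were called.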
